A study of Homo sapiens with 24 samples.

Results

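The comparison described here is that of dexamethasone (dex) with its vehicle ethanol (EtOH) after 7 hours in A549 cells, a human line derived from a lung adenocarcinoma. Its members are the 4 libraries labelled DEX or EtOH at 7 hours, replicates 1 and 2 of each, out of 24 libraries in 12 groups, compared across all genes. The study followed the transcriptional response to glucocorticoids (GCs) over 6 time points from 1 to 11 hours by sequencing poly-A RNA. The treated group received 100 nM dex dissolved in EtOH, and the control group received EtOH alone at 0.02% by volume. All libraries come from this established line, grown in F-12K medium with serum, and the labels call the 2 libraries of a group biological replicates.

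Dex is a synthetic GC. It enters the cell and binds the glucocorticoid receptor (GR, gene *NR3C1*), which is held in the cytoplasm by heat shock protein chaperones until hormone arrives and then moves to the nucleus. There GR binds DNA at glucocorticoid response elements (GREs), where it raises transcription, and it also lowers transcription of many genes activated by AP-1 and NF-κB, the basis of the anti-inflammatory use of GCs in the airway.

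The 7 hour libraries hold between 7719665 and 11055388 counts, the smallest being dex replicate 2. Rows of the table are transcripts, and 110262 of 119207 were joined to 33127 genes through their identifiers. Counts of all transcripts of a gene were added up. After a filter on low counts, 15337 genes were tested. Levels are given as normalised CPM, which are counts scaled to the size of the library, with TMM factors over all 24 libraries, and not divided by gene length, so a level is compared only with the same gene in another library. The typical gene differed between the replicates of a treatment by 0.0999 on the log2 scale with dex and 0.122 with EtOH (median absolute difference), against 0.185 between the means of dex and EtOH. Of 7 tested markers of the line and of epithelium, 4 were called higher with dex and 2 lower. *KRT8*, *KRT18* and *KRT7*, keratins of simple epithelium, had at least 6877 counts in each library, whereas *EPCAM*, an epithelial adhesion protein, had 58 and 31 counts with dex and 93 and 97 with EtOH, and *SERPINA1* had at most 2. Of the markers of alveolar type 2 cells, the lipid transporter *ABCA3* had 340 and 256 counts in the dex libraries and 252 and 289 in the EtOH libraries and was called higher (0.29, edgeR adjusted p = 0.0736), and the surfactant genes *SFTPA1*, *SFTPA2* and *SFTPC* had 0 counts in all 4. Markers of other cell types were low as well: *CD3E*, *CD3D* and *MS4A1* of lymphocytes had 0 counts, summed markers of leukocytes came to 4.40 to 6.93 CPM and those of endothelium to at most 0.691 CPM. Summed fibroblast markers stood at 10.9 and 8.81 CPM in the dex libraries and 19.15 and 19.02 in the EtOH libraries, and 1 of the 4 tested, the collagen *COL1A1*, was called lower (-1.03).

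A gene was called when its adjusted p from the quasi-likelihood F-test of edgeR, adjusted by Benjamini and Hochberg, was at most 0.1. At 7 hours 4291 of 15337 genes were called (28.0%), 2183 of them higher with dex (14.2% of those tested) and 2108 lower (13.7%). Most changes were below 2-fold. The median log2 fold change of the genes called was 0.53 for those higher and -0.58 for those lower, and 956 genes were both called and changed by 2-fold or more, 538 upwards and 418 downwards. Large changes were more often upwards, with 80 genes called higher by 3 or more on the log2 scale and 19 called lower by as much. The count of 4291 fell to 2280 genes without dex replicate 1, 2477 without dex replicate 2 and 2390 with DESeq2 in place of edgeR.

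**Figure D1:**
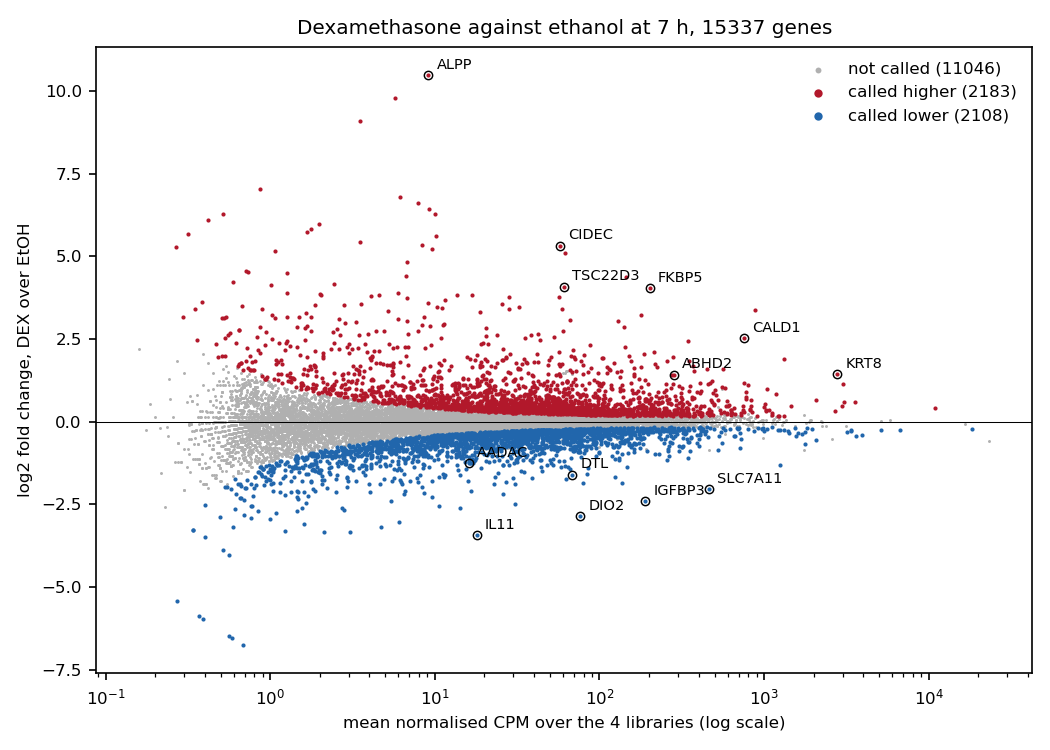
Each point is one of 15337 genes, with its mean normalised CPM over the 4 libraries of 7 hours on a log axis and its log2 fold change of dex over EtOH; red points were called higher (2183), blue points lower (2108) and grey points not called (11046). Some of the named genes are circled, and the largest changes are upwards, led by *ALPP*, which had no count with EtOH.

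*ABHD2*, *FKBP5* and *AADAC* were followed first. *ABHD2* encodes a serine hydrolase of the alpha/beta hydrolase fold and lies on GRCh38 on chromosome 15 from 89087459 to 89202360 (GENCODE release 29). It had 4303 and 3238 counts in the dex libraries and 1526 and 1606 in the EtOH libraries, or 395 and 427 normalised CPM in the dex libraries and 151 and 157 in the EtOH libraries. The groups did not overlap. Of all genes tested, 29.1% had both dex libraries above both EtOH libraries, and 29.7% had both below. The level of *ABHD2* was 2.67 times higher with dex, or by 1.42 (SE 0.08) on the log2 scale, where SE is the standard error. Its adjusted p from edgeR was 4.74e-17. All 5 of its transcripts in the table were called higher, with log2 fold changes from 1.23 to 2.04, and the transcript with the most counts (3838 and 2908 with dex, 1397 and 1440 with EtOH) rose by 1.39. *FKBP5*, on chromosome 6 from 35573585 to 35728583, encodes a co-chaperone that lowers the affinity of GR for hormone and is a classical GR target. It had 4054 and 2933 counts in the dex libraries and 231 and 240 in the EtOH libraries, and its 16.4-fold rise had the smallest p of all genes, with a log2 fold change of 4.04 (SE 0.09) and an edgeR adjusted p of 1.60e-27. Its 4 transcripts rose by 3.98 to 4.09 on the log2 scale. Transcripts of a gene share sequence and so share reads, and they are not independent measurements. *AADAC*, on chromosome 3 from 151814037 to 151828488, encodes arylacetamide deacetylase, an esterase of the endoplasmic reticulum. It went the other way, with 113 and 65 counts in the dex libraries and 252 and 211 in the EtOH libraries. Its levels were 10.4 and 8.58 normalised CPM in the dex libraries and 24.9 and 20.6 in the EtOH libraries, without overlap, a log2 fold change of -1.24 (SE 0.15) with an edgeR adjusted p of 6.44e-08. In bulk RNA such as this, fewer cells of a kind and less RNA per cell cannot be told apart.

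**Figure D2:**
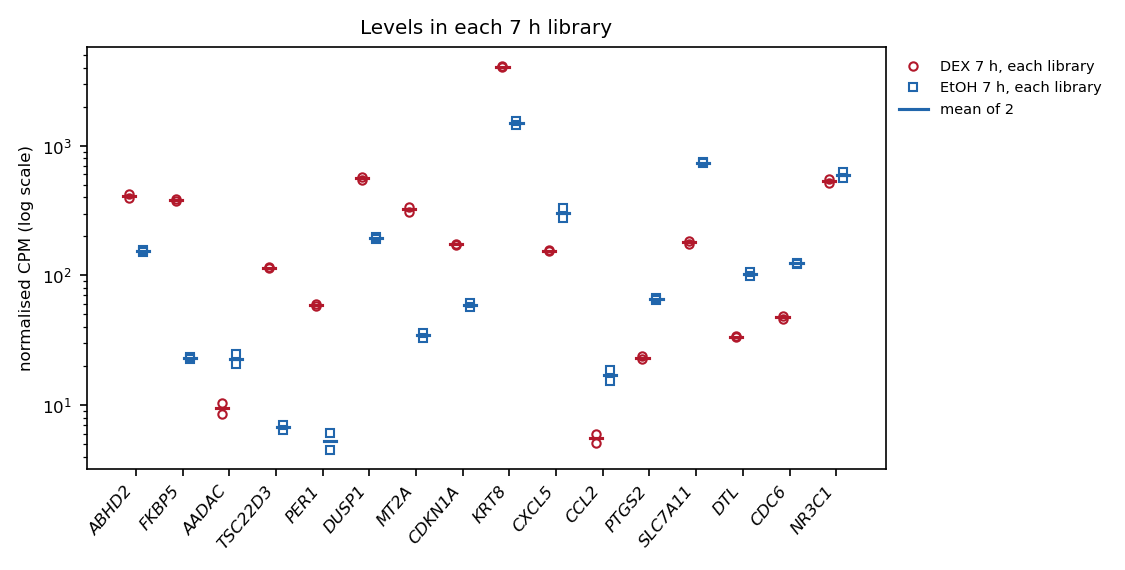
Normalised CPM on a log axis for 16 genes in each 7 hour library, dex as red circles and EtOH as blue squares, with a short line at the mean of 2. The treatments separate for the genes called, such as *FKBP5* at 373 and 387 CPM against 22.8 and 23.5, and lie close together for *NR3C1*.

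The textbook targets of GCs were almost all higher. Of 26 genes on a list of known targets, 25 had enough counts to be tested, 24 were called higher (against 14.2% of all genes) and none lower, with a median log2 fold change of 1.91 beside -0.01 over all genes. Many of these genes were listed because GCs are known to raise them, and the list was chosen with earlier results of these data known. The direction and the share called are therefore what this selection would give. *TSC22D3*, which encodes the anti-inflammatory leucine zipper protein GILZ, had 1241 and 872 counts in the dex libraries and 65 and 72 in the EtOH libraries, a 17-fold difference. *PER1*, a repressor of the circadian clock, had 635 and 459 counts in the dex libraries and 46 and 62 in the EtOH libraries. No dex library of either gene came near an EtOH library. *MT2A* and *MT1X*, metallothioneins that bind zinc, were 9.37 and 10.6 times higher, and *KLF9*, a transcription factor, was 11.8 times higher. *DUSP1*, a phosphatase that switches off MAP kinases, rose from 194 ± 4.09 to 559 ± 15.97 normalised CPM (SD, n = 2). *ERRFI1*, an inhibitor of the EGF receptor, had a log2 fold change of 1.96, *SGK1*, a kinase that raises sodium uptake, 1.39, *IRS2*, an adaptor of insulin signalling, 1.91, and *PDK4*, a kinase that turns off pyruvate dehydrogenase, 1.90. *CEBPB* (1.56) and *CEBPD* (1.72), transcription factors of the acute phase response, also rose. The smallest calls of the list were *CRISPLD2* (0.96) and *GLUL*, glutamine synthetase (0.55, edgeR adjusted p = 0.00366). *FAM107A*, with 9 to 11 counts in each library, was not called (0.15, SE 0.50), and *ZBTB16*, with 6 and 3 counts with dex and 0 with EtOH, was too low to be tested.

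Promoter windows of RefSeq (GRCh38.p14, from 250 bases before to 50 bases after the start of a gene) were read for the core of the GRE, ACANNNTGT, which reads alike on both strands. Of the 25 known targets 22 had a window and 2 of these held the core, *TSC22D3* and *IRS2*. The share was 3.01% of 1661 windows of genes called higher, 2.21% of 1583 of genes called lower, 2.79% of 7455 of genes not called and 5.45% of all 27305 windows, so the core was rare near the start whether or not a gene was called. Both windows are shown because they belong to genes that rose, with the match in capitals.
*TSC22D3* (chrX:107775939-107776238, minus strand, 5′ to 3′): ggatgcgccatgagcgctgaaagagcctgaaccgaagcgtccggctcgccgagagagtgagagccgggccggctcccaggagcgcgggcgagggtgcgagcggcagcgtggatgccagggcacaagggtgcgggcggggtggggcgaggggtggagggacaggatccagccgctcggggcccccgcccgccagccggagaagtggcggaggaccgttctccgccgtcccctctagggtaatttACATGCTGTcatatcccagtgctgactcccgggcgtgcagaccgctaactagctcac
*IRS2* (chr13:109786534-109786833, minus strand, 5′ to 3′): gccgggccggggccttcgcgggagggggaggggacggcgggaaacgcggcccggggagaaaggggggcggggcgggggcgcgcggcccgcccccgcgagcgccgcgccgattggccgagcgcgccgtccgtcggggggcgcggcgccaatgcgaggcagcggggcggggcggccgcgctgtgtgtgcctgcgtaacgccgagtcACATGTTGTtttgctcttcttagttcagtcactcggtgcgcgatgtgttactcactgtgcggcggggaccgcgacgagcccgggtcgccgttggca
In *TSC22D3* the match starts 7 bases before the start used for its RefSeq window and in *IRS2* 46 bases before that of its own. The GENCODE span of *TSC22D3*, on the minus strand, begins further upstream at 107777342. Its window therefore covers only 1 start of this gene, and which transcripts use it was not examined. *IRS2* had 1766 and 1285 counts in the dex libraries and 411 and 486 in the EtOH libraries. A match is a description of the letters only, and elements outside the window were not searched.

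GR itself was not called as a gene at 7 hours. *NR3C1* had 518 and 551 normalised CPM in the dex libraries and 564 and 627 in the EtOH libraries, a log2 fold change of -0.16 (SE 0.07) with an edgeR adjusted p of 0.143. The groups did not overlap. Its transcripts ENST00000231509 (-0.51), ENST00000415690 (-0.49) and ENST00000504572 (-0.36) were called lower, and its other tested transcripts were not called. In the tests of single time points the gene was called lower at 3 (-0.62), 9 (-0.45) and 11 hours (-0.52), but not at 5 hours (-0.14). Of 23 genes for GR, its chaperones and its coregulators, all of them tested, 7 were called higher and 6 lower. The share called was 56.5% against 28.0% of all genes, with a median log2 fold change of -0.02. Both cytosolic HSP90 genes were lower: *HSP90AA1* fell from 4442 ± 6.25 to 3372 ± 105 normalised CPM (SD, n = 2 each), and *HSP90AB1* had a log2 fold change of -0.25. *HSPA1A* (-0.61) and *HSPA1B* (-0.73), which are nearly identical in sequence and can share reads, *DNAJA1* (-0.27) and *BAG1* (-0.42) also fell. The constitutive HSP70 gene *HSPA8* (-0.12, SE 0.07) and the cofactors *FKBP4* (-0.04, SE 0.08), *PTGES3* (-0.16, SE 0.07), *STIP1* (-0.02, SE 0.08) and *PPID* (-0.05, SE 0.10) were not called. Among the chaperones, *DNAJB1* (0.67), an HSP40 that assists HSP70, and *CDC37* (0.33), the kinase-specific partner of HSP90, rose. The corepressor *NCOR1* (0.34) and the coactivators *NCOA1* (0.36) and *NCOA2* (0.23) rose, whereas *NCOA3* (-0.02, SE 0.08), *EP300* (0.06, SE 0.10) and *CREBBP* (0.03, SE 0.09) were not called. With the GC content of genes taken out, *CDC37* was no longer called (log2 fold change 0.23, edgeR adjusted p = 0.127).

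Among called genes with a mean of at least 5 CPM and no overlap, those that rose most came from very low levels. *ALPP*, placental alkaline phosphatase, had 202 and 136 counts in the dex libraries and 0 and 0 in the EtOH libraries, so dex was at least 121-fold higher against 3 counts over both EtOH libraries. Its near-identical neighbours in the genome can share its reads. *CILP*, a cartilage matrix protein, had 125 and 86 counts in the dex libraries and 0 and 0 in the EtOH libraries, at least 75.8-fold higher by the same floor. *CDKN1C*, which encodes the cyclin-dependent kinase inhibitor p57, had 135 and 91 counts in the dex libraries and 2 and 0 in the EtOH libraries, a ratio of 122 with an exact 95% counting interval from 33.3 to 1011. *CDH16*, a cadherin of kidney and thyroid epithelium, had 183 and 110 counts in the dex libraries and 2 and 1 in the EtOH libraries, a ratio of 105 (interval from 35.7 to 513). These intervals and floors cover counting error only. Next came *STAC2* (86.9-fold), *DNAJC15* (77.2-fold), the keratin *KRT6A* (48.9-fold, with close relatives in its family), *GPR1* (40.2-fold), a chemerin receptor, *EDN3* (37.1-fold), an endothelin, and *NSG1* (28.6-fold), a protein of endosomes in neurons. *CIDEC* and *ANGPTL4* were among the genes with the largest rises and also among the 10 with the smallest p. *CIDEC*, a protein of lipid droplets, had 1287 and 808 counts in the dex libraries and 26 and 31 in the EtOH libraries. *ANGPTL4*, a secreted inhibitor of lipoprotein lipase, had 1299 and 916 counts in the dex libraries and 30 and 41 in the EtOH libraries. Both were more than an order of magnitude higher in each dex library than in each EtOH library. Besides *FKBP5*, *TSC22D3* and *MT2A* above and *ACSL1* below, the others of these 10 were *TFCP2L1* (20.8-fold), a transcription factor of epithelial ducts, *OTULINL* (13.6-fold), the integrin subunit *ITGA5* (7.25-fold) and *CALD1* (5.78-fold), caldesmon, which binds actin and myosin and had 13728 and 9813 counts in the dex libraries and 2247 and 2255 in the EtOH libraries.

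Among called genes with a mean of at least 5 CPM and no overlap, the 12 largest falls included secreted proteins, enzymes and noncoding RNAs. *IL11*, a cytokine of the IL-6 family, had 35 and 21 counts in the dex libraries and 348 and 321 in the EtOH libraries, 10.8 times lower with dex. *DIO2*, the deiodinase that activates thyroid hormone, had 205 and 137 counts in the dex libraries and 1402 and 1320 in the EtOH libraries, and *IGFBP3*, which binds insulin-like growth factors, had 686 and 442 counts in the dex libraries and 3287 and 3220 in the EtOH libraries. In each of these genes every dex library was below every EtOH library, as the rule for naming them required. *PTHLH*, parathyroid hormone-related protein, was 4.58 times lower, *PDE1C*, a phosphodiesterase of cyclic nucleotides, 5.57 times, *ST8SIA4*, a polysialyltransferase, 8.19 times, *RND1*, a small GTPase, 4.82 times, and *TP63*, the p53 relative that marks basal epithelium, 5.33 times. *C6orf141* (6.07 times), *C3orf80* (5.89 times) and the long noncoding RNAs *LUCAT1* (4.50 times) and *SLC7A11-AS1* (4.55 times) made up the rest. *SLC7A11-AS1* overlaps *SLC7A11* on the opposite strand. The libraries were stranded according to the study's methods, but whether mapping and counting used the strand is not given in the sources used here, so the values of this pair are uncertain.

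Genes of DNA replication fell together. Of 42 tested S phase genes 39 were called lower (against 13.7% of all genes) and none higher, with a median log2 fold change of -0.80. *DTL*, which directs replication factors to degradation, had 362 and 260 counts in the dex libraries and 1003 and 1088 in the EtOH libraries, 3.04 times lower with dex (log2 fold change -1.60, SE 0.10, edgeR adjusted p = 1.06e-15). *CDC6*, which loads the replicative helicase, had 501 and 371 counts in the dex libraries and 1267 and 1258 in the EtOH libraries, 2.62 times lower. *EXO1*, an exonuclease of DNA repair, fell by 1.17 on the log2 scale and *HELLS*, a chromatin remodeller, had 91.8 ± 12.5 normalised CPM under dex and 181 ± 11.5 under EtOH (SD, n = 2). Of 54 G2 and M phase genes 30 were called lower (55.6% against 13.7% of all genes) and none higher. Their changes were smaller, with a median of -0.23. The 4 with the smallest p were *HJURP*, the chaperone of the centromeric histone (-0.94), *SMC4*, a condensin subunit (-0.61), *ECT2*, a regulator of cytokinesis (-0.53), and *TMPO*, a protein of the nuclear lamina (-0.46). Of 19 tested genes for G1 cyclins, kinases and their inhibitors, 10 were called lower and 4 higher, or 73.7% against 28.0% of all genes. The transcription factor *E2F1*, which drives entry into S phase, had 269 and 167 counts in the dex libraries and 522 and 539 in the EtOH libraries (-1.15 on the log2 scale), and *CDK6* fell as well (-0.65). Against these, *CDKN1A*, which encodes the inhibitor p21, rose 2.95-fold, from 58.8 ± 2.98 to 173 ± 1.04 normalised CPM, beside the rise of *CDKN1C* given above.

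Promoter windows of the cell cycle genes were read for a pair of motifs. The E2F motif was searched as TTTGGCGC or TTTCGCGC and the cell cycle homology region (CHR) as TTTGAA or TTCGAA, on both strands. E2F motifs stood in 9 of 32 S phase windows (28.1%) and 2 of 45 G2 and M phase windows (4.44%), against 3.92% of windows of genes called lower, 0.903% of those called higher, 1.82% of those not called and 1.18% of all windows. CHR motifs stood in 33 of 45 G2 and M phase windows (73.3%) and 2 of 32 S phase windows (6.25%), against 15.1% of windows of genes called lower, 10.1% of those called higher, 10.8% of those not called and 16.6% of all windows. These shares are descriptions and carry no test. *DTL* and *CDC6* had the smallest p of the cell cycle genes whose windows hold either motif, and are shown with the E2F motif in capitals.
*DTL* (chr1:212035498-212035797, plus strand, 5′ to 3′): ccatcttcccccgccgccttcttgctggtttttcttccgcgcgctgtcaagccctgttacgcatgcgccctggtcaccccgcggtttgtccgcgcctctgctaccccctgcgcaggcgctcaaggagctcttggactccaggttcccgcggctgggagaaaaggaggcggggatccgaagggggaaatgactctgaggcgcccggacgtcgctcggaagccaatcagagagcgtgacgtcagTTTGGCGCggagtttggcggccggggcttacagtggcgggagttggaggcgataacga
*CDC6* (chr17:40287629-40287928, plus strand, 5′ to 3′): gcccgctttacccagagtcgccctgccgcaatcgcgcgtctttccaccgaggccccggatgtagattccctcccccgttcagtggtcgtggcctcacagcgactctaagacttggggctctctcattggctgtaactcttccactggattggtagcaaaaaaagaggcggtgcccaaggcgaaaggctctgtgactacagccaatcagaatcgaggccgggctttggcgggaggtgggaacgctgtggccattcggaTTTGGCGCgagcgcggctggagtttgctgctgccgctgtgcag
The same 8 letters, TTTGGCGC, stand 8 bases before the start in *DTL* and 7 bases after it in *CDC6*, whose levels were 3.04 and 2.62 times lower with dex.

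**Figure D3:**
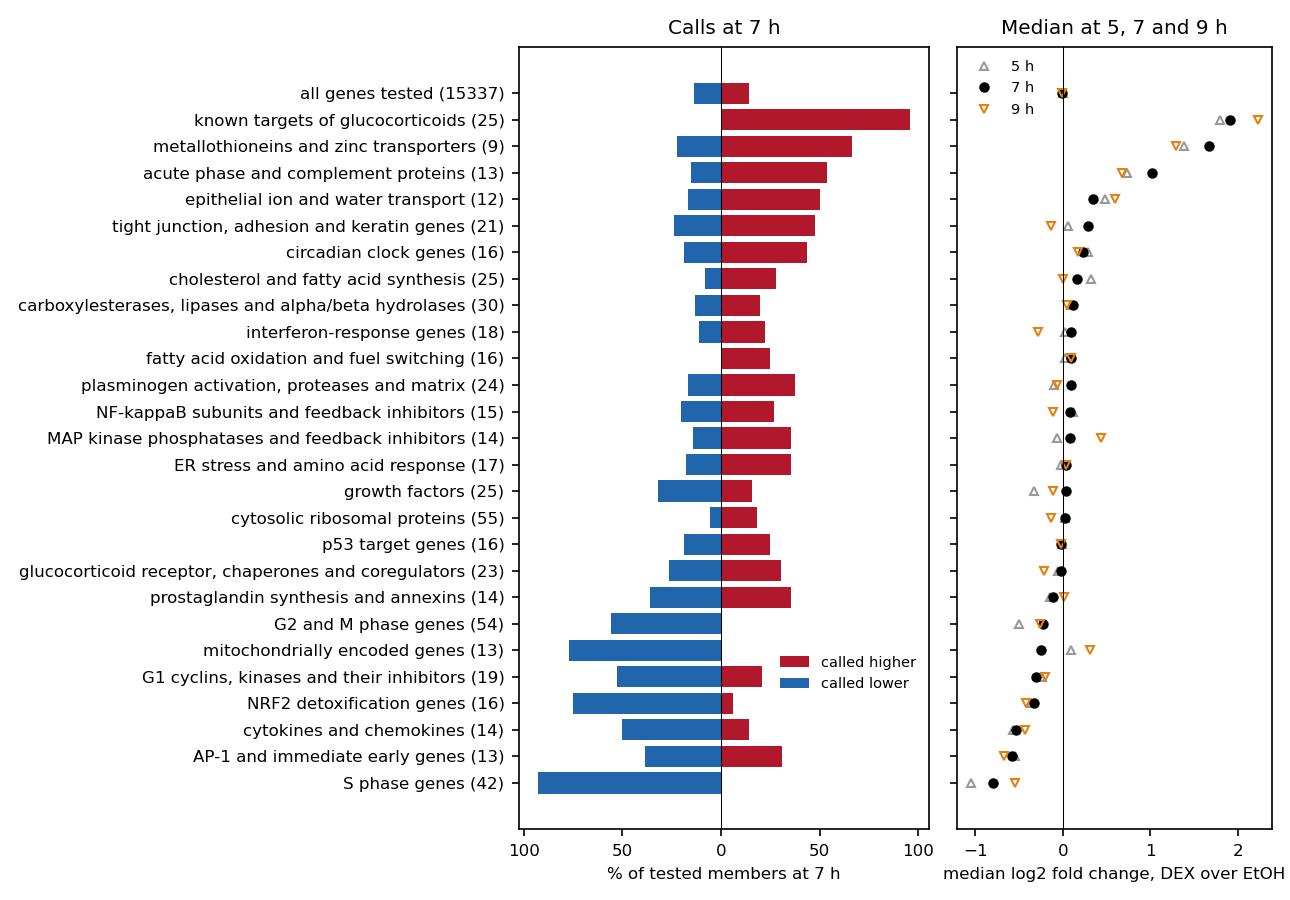
Left, the percent of tested members of each gene list that were called higher (red, to the right) or lower (blue, to the left) at 7 hours, with the number tested in brackets and all 15337 genes on top. Right, the median log2 fold change of each list at 5, 7 and 9 hours. S phase genes lie lowest at 5 and 7 hours, at -1.05 and -0.80. At 9 hours they lie at -0.55, above AP-1 and immediate early genes (-0.67).

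Inflammatory genes moved in both directions. Of 28 cytokines and chemokines 14 had enough counts to be tested. Of these 7 were called lower (50% against 13.7% of all genes) and 2 higher (14.3% against 14.2%). Their median log2 fold change was -0.54, with values from -3.43 to 7.05, so the largest change of the list was a rise. By 2-fold or more, 3 were called lower and 1 higher. *CXCL5*, which attracts neutrophils, had 153 and 157 normalised CPM in the dex libraries and 276 and 330.5 in the EtOH libraries. *CCL2*, which attracts monocytes, had 65 and 39 counts in the dex libraries and 155 and 190 in the EtOH libraries, and *CXCL1* had 24 and 18 counts in the dex libraries and 86 and 68 in the EtOH libraries, each about 3 times lower with dex (3.01 and 3.31 times). Of 25 tested growth factors 8 were called lower (32%) and 4 higher (16%, near the 14.2% of all genes). The EGF receptor ligand *EREG* had 654 and 448 counts in the dex libraries and 1864 and 1984 in the EtOH libraries, and *TGFB2* (-1.60) and *NRG1* (-0.89) fell with it, whereas *CTGF*, connective tissue growth factor, rose 2.84-fold. Among 13 tested AP-1 and immediate early genes 4 were called higher and 5 lower, or 69.2% against 28.0% of all genes. *FOS* (1.19) and *FOSL2* (0.72) were among those higher, and *IER3* (-1.04) and *IER5* (-0.84) among those lower. For NF-κB, 15 genes were tested and 46.7% of them called, against 28.0% of all genes. The feedback inhibitors *NFKBIA* (1.53), *TNFAIP3* (1.86) and *TNIP1* (0.90) and the ubiquitin ligase *BIRC3* (1.93) were the 4 called higher, and 3 subunits were called lower. *NFKBIA*, which holds NF-κB in the cytoplasm, had 199 and 202 normalised CPM in the dex libraries and 72.7 and 66.5 in the EtOH libraries.

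MAP kinase phosphatases and other feedback inhibitors of MAP kinases gave 5 calls higher and 2 lower of 14 tested. The share called was 50% against 28.0% of all genes. *DUSP1* and *DUSP5* (0.76) rose, but *DUSP4* fell (-0.77), so phosphatases of the same family moved in opposite directions. In the prostaglandin pathway, with 14 tested genes, 5 were called higher and 5 lower, or 71.4% against 28.0% of all genes. *PTGS2*, the inducible cyclooxygenase COX-2 that GCs are known to repress, had 261 and 171 counts in the dex libraries and 659 and 691 in the EtOH libraries and was 2.84 times lower. *PTGES*, which makes prostaglandin E2 from the product of COX-2, had 1379 and 890 counts in the dex libraries and 359 and 401 in the EtOH libraries and was 3.27 times higher. *HPGD*, which inactivates prostaglandins, rose (0.57), as did *ANXA2* (0.58), a phospholipid-binding annexin. Interferon-response genes gave 4 calls higher and 2 lower of 18, near the background of 28.0%, with *OAS1* among those lower (-0.70).

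The alpha/beta hydrolases, the family of *ABHD2* and *AADAC*, were mostly not called. Of 30 tested carboxylesterases, lipases and hydrolases, 6 were called higher and 4 lower, or 33.3% against 28.0% of all genes. Besides *ABHD2*, *ABHD12*, a lipase for lysophosphatidylserine, rose 1.85-fold, with 80.1 and 74.8 normalised CPM in the dex libraries and 43.2 and 40.5 in the EtOH libraries. *ABHD17C*, a depalmitoylase, fell by 0.94 on the log2 scale, and its levels of 14.1 and 15.3 normalised CPM in the dex libraries and 29.02 and 26.97 in the EtOH libraries did not overlap. Of 16 tested genes of fatty acid oxidation and fuel switching, 4 were called, all higher, or 25% against 28.0% of all genes, and the median log2 fold change was 0.10. *ACSL1*, which activates long-chain fatty acids, had 2590 and 1721 counts in the dex libraries and 289 and 281 in the EtOH libraries, a rise of 8.31-fold, and *PLIN2*, a coat protein of lipid droplets, rose 2.16-fold. The other called genes were *ANGPTL4* and *PDK4*, given above. In cholesterol and fatty acid synthesis 7 of 25 were called higher and 2 lower, or 36.0% against 28.0% of all genes, with a median of 0.17: the fatty acid synthase *FASN* rose (0.47), and the desaturase *SCD* fell (-0.75).

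Stress pathways moved in different directions. Metallothioneins and zinc transporters were tested in 9 genes, of which 6 were called higher and 2 lower, or 88.9% against 28.0% of all genes. The median log2 fold change was 1.66. *MT1G* had 114 and 65 counts in the dex libraries and 11 and 8 in the EtOH libraries, and the zinc importer *SLC39A14* rose 2.27-fold. Reads of the metallothioneins can be shared, since their sequences are close. NRF2 detoxification genes went down instead, with 12 of 16 called lower (75% against 13.7% of all genes) and 1 higher. Their median was -0.33. *SLC7A11*, the cystine transporter that feeds glutathione synthesis, fell from 741 ± 7.37 to 179.5 ± 6.74 normalised CPM (SD, n = 2), 4.13 times lower. Both subunits of the enzyme for the next step, *GCLC* (-0.62) and *GCLM* (-0.88), fell, as did *SRXN1*, sulfiredoxin (-0.74). Genes of endoplasmic reticulum stress and the amino acid response gave 6 calls higher and 3 lower of 17. The share called was 52.9% against 28.0% of all genes. Among the called genes was the mTOR inhibitor *DDIT4*, which GCs are known to raise (2.25-fold). The chaperone *HSPA5* (0.41), *TRIB3* (0.61) and the serine synthesis enzyme *PSAT1* (-0.45) were called too. Of 16 p53 target genes 4 were called higher and 3 lower, or 43.75% against 28.0% of all genes. Among these, *GADD45A* was 3.52 times higher and *PLK2* 1.84 times lower.

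Epithelial transport, adhesion and matrix genes moved in both directions, with more calls higher than lower. Of 12 tested genes for ion and water transport, 6 were called higher and 2 lower, or 66.7% against 28.0% of all genes. *SCNN1A*, the alpha subunit of the epithelial sodium channel, had 430 and 322 counts in the dex libraries and 55 and 81 in the EtOH libraries. It rose by 2.61 on the log2 scale, and the aquaporin *AQP3* rose by 2.35 from 17 and 18 counts with EtOH. For tight junctions, adhesion and keratins, 10 of 21 were called higher and 5 lower, or 71.4% against 28.0% of all genes. *KRT8* had 4102 and 4035 normalised CPM in the dex libraries and 1436 and 1547 in the EtOH libraries, and its partner *KRT18* was 2.21 times higher. Desmosomal *PKP2* rose 4.10-fold and E-cadherin (*CDH1*) rose by 0.54 on the log2 scale, whereas *CLDN2*, a claudin that forms pores for cations, had 143 and 100 counts in the dex libraries and 473 and 512 in the EtOH libraries and was 3.67 times lower. Of 24 genes for proteases and matrix, 9 were called higher and 4 lower, or 54.2% against 28.0% of all genes. *ITGB4*, the integrin of hemidesmosomes, rose 4.96-fold, and its ligand chain *LAMA3* rose 1.99-fold. *MMP15* rose as well (1.29).

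Acute phase and complement genes, which hepatocytes make in bulk, gave 7 calls higher and 2 lower of 13 tested. The share called was 69.2% against 28.0% of all genes, with a median log2 fold change of 1.02. Complement *C3* had 2627 and 1768 counts in the dex libraries and 477 and 531 in the EtOH libraries, 4.80 times higher. The fibrinogen chains *FGA* and *FGB* rose 6.19- and 3.62-fold, and the protease inhibitor *SERPINA3* had 153 and 84 counts in the dex libraries and 7 and 12 in the EtOH libraries. Of 16 circadian clock genes 7 were called higher and 3 lower, or 62.5% against 28.0% of all genes. Besides *PER1*, *PER2* (0.99), *CRY1* (0.75) and *CRY2* (1.28), all of the repressing limb, rose.

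Housekeeping genes were also counted. Among cytosolic ribosomal protein genes 10 of 55 were called higher and 3 lower, beside 28.0% of all genes called, with a median log2 fold change of 0.03 whose sign turned with library totals alone as scaling. The mitochondrially encoded genes all had negative log2 fold changes, with 10 of 13 called lower (76.9% against 13.7% of all genes). Their median log2 fold change was -0.25. The share of counts on these genes was 4.73% and 4.13% in the dex libraries and 5.63% and 5.04% in the EtOH libraries, and at 5 and 9 hours their median was 0.09 and 0.31. The genes called higher at 7 hours had a median GC content of 50.9% and those called lower 44.5%, against 48.2% over all genes.

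To ask what is particular to 7 hours, the dex effect was compared with that at the neighbouring time points, which have EtOH libraries of their own, in a fit over 12 libraries. Both of these comparisons use the same 4 libraries of 7 hours. Between 5 and 7 hours no gene was called (0 of 15337, 0.00%, by edgeR's quasi-likelihood test, and 0 by DESeq2). At an unadjusted p under 0.05 there were 802 genes (5.23%), and the smallest adjusted p was 0.857. Of the 2183 genes called higher at 7 hours 1365 were called higher at 5 hours by its own test, and of the 2108 called lower 1335 were called lower. *FKBP5* rose by 3.75 at 5 hours and 4.04 at 7 hours, and *ABHD2* by 1.31 and 1.42, differences of 0.28 (standard error 0.14) and 0.10 (0.13). *AADAC* was at -0.76 at 5 hours and -1.24 at 7 hours, a difference of -0.49 (0.24) that was not called (edgeR adjusted p = 0.95). The median S phase gene was at -1.05 after 5 hours and at -0.80 after 7 hours.

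Between 7 and 9 hours the dex effect of 265 genes differed (1.73% of those tested), being more positive at 7 hours for 168 and more negative for 97. Of the 4291 genes called at 7 hours, 176 were among the 265. For 166 of these 176 the difference had the same sign as the effect at 7 hours. Choosing genes called at 7 hours, in libraries that also enter the difference, favours this split. The 166 include genes whose sign turned, such as *CDC37* (0.33 at 7 hours and -0.45 at 9 hours). *AADAC* was also 1 of the 166. Its level was 10.4 and 8.58 normalised CPM with dex and 24.9 and 20.6 with EtOH at 7 hours. At 9 hours it was 13.8 and 10.9 with dex and 16.6 and 15.5 with EtOH. The difference of the log2 fold changes was -0.84 (standard error 0.24, edgeR adjusted p = 0.0998). At 3, 5, 7, 9 and 11 hours the log2 fold change of *AADAC* was -0.77, -0.76, -1.24, -0.39 and -0.74. The keratins *KRT8* (0.79) and *KRT7* (0.63), *ITGB4* (0.78), *C3* (0.57), *FGA* (0.67), *PTGES* (0.59) and *CDC37* (0.79) had more positive effects at 7 than at 9 hours. *DTL* (-0.56) and *ABHD17C* (-0.73) had more negative ones. *HSPA1A* (0.71) fell less at 7 hours, and *HPGD* (-0.50) rose less. For *ABHD2* the difference was 0.09 (standard error 0.13) and for *FKBP5* -0.10 (0.15), neither of them called.

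The largest difference upwards was that of *KLF15*, a transcription factor that GCs are known to raise. It had 16.7 and 16.5 normalised CPM with dex and 11.1 and 13.97 with EtOH at 7 hours, but 13.8 and 24.1 with dex and 65.8 and 60.9 with EtOH at 9 hours. The dex levels of the 2 time points overlap, and the EtOH levels differ about 5 times. With EtOH the gene stood at 50.4 and 45.6 at 1 hour and 12.3 and 14 at 11 hours, and its log2 fold change was 1.75 at 5 hours, 0.41 at 7 hours and -1.69 at 9 hours. *BANP* (1.72), *PEX16* (1.44), *WDR83* (1.41), *SCNM1* (1.39) and *MZT2B* (1.32) followed it. *PEX16*, which brings membrane proteins to peroxisomes, had 7.17 and 5.67 with dex and 2.86 and 3.23 with EtOH at 7 hours. The largest differences downwards were those of the noncoding RNAs *RNFT1-DT* (-1.34), *LINC01355* (-1.29) and *AP000873.2* (-1.26), and of *HCFC2* (-1.21), *ATAT1* (-1.20) and *GOLGA8B* (-1.19, a gene with near-identical copies).

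**Figure D4:**
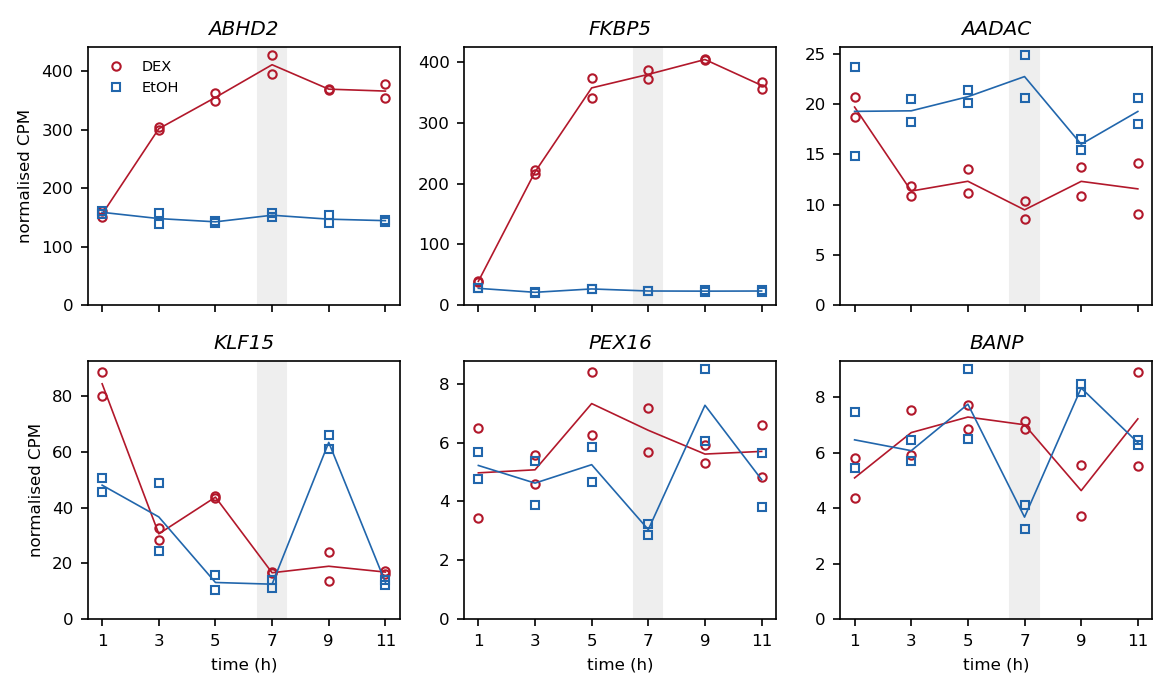
Normalised CPM over the 6 time points for 6 genes, dex as red circles and EtOH as blue squares, each point a library and lines through the means, with 7 hours shaded. *ABHD2* and *FKBP5* keep their EtOH level while dex rises, whereas *KLF15* with EtOH stands at 65.8 and 60.9 CPM at 9 hours and at 11.1 and 13.97 at 7 hours.

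The 265 genes stood apart in base composition. The median GC content was 58.0% for the 168 genes with the more positive effect at 7 hours and 39.0% for the 97 with the more negative effect, against 48.2% over all genes tested. Across 10618 genes of at least 5 normalised CPM, which are not independent replicates, the log2 fold change rose with GC content at 7 hours (Spearman 0.22) and fell with it at 9 hours (-0.30), and differences between the replicates of a group gave values from -0.63 to 0.41. With GC content taken out, 54 genes differed, 39 of them among the 265, and 5 of the 24 named above remained. The count was 0 without dex replicate 1 of 7 hours or without EtOH replicate 1 of 7 hours (1629 and 1536 genes at an unadjusted p under 0.05 by edgeR), 1 without dex replicate 1 of 9 hours, and 1342 without EtOH replicate 1 of 9 hours. In contrast, the comparison at 7 hours by itself gave 4303 genes with GC content taken out, 3835 of them among the 4291.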

How the data were processed

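Poly-A RNA of A549 cells was sequenced with 2 libraries for each of dex and EtOH at 6 time points. According to the study's methods the authors aligned reads to GENCODE release 19 transcripts (hg19) and counted them per transcript with SAMtools, and the deposited table holds these raw counts. The assignment of reads that match several transcripts and whether counting used the strand of these stranded libraries are not given in the sources used here. The methods speak of triplicates where the labels give 2 biological replicates, and the treatment text names 1 hour for all libraries, so time was taken from each library's own label.

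Transcript rows were joined to GENCODE release 29 genes (GRCh38) by identifier without its version and summed. The 110262 rows joined hold 94.1% of the counts, and the 8945 other rows stayed single. The 7 hour libraries hold 7719665 to 11055388 counts. Counts were filtered on low values, scaled by TMM and tested with edgeR 4.0.16 (R 4.3.3), using the quasi-likelihood test over the 4 libraries of 7 hours, with Benjamini-Hochberg adjustment over 19897 features, 15337 of them joined genes. Differences between time points were fitted over 12 libraries. P-values rest on the spread between the labelled replicates. With 2 libraries per group, edgeR's estimate of that spread for a gene draws largely on the other genes (median prior degrees of freedom 31.9 at 7 hours).

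Named genes were *ABHD2*, *FKBP5* and *AADAC*, the 12 largest called changes in each direction with a mean of at least 5 CPM and no overlap, up to 4 called members of each list with the smallest p, all known targets and GR genes, the 6 largest differences between time points in each direction and the 10 smallest p. Genes, lists and comparisons were chosen with earlier results of these data known.

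Alternatives were DESeq2 1.42.0, other scalings, filters and thresholds, a fit over 24 libraries, a replicate block, other ways to combine transcripts, and leaving out each library of 7 hours. Taking out GC content and leaving out libraries of 5 and 9 hours were added after seeing the data. Promoter windows came from RefSeq (GRCh38.p14). Some genes that the rule names are not reported here, and some list members were not analysed here (*ACACA*, *ANXA8*, *CCL5*, *DUSP14*, *IKBKE*, *PECAM1*, *UHRF1* and *VEGFC*). The tests did not pair replicates by number.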

Additional observations from a re-analysis of the deposited data

Results flagged for a closer look

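The dex effect of 265 genes differed between 7 and 9 hours by a test of the difference itself (edgeR's quasi-likelihood test over 12 libraries, adjusted p at most 0.1), which singles out these genes. The values that follow are the log2 fold change at 7 hours minus that at 9 hours. Among the named genes it was above 0 for *KLF15* (2.10), *BANP* (1.72), *PEX16* (1.44), *WDR83* (1.41), *SCNM1* (1.39), *MZT2B* (1.32), *KRT8* (0.79), *KRT7* (0.63), *HSPA1A* (0.71), *CDC37* (0.79), *ITGB4* (0.78), *C3* (0.57), *FGA* (0.67) and *PTGES* (0.59). It was below 0 for *RNFT1-DT* (-1.34), *LINC01355* (-1.29), *AP000873.2* (-1.26), *HCFC2* (-1.21), *ATAT1* (-1.20), *GOLGA8B* (-1.19), *AADAC* (-0.84), *DTL* (-0.56), *ABHD17C* (-0.73) and *HPGD* (-0.50). Of these 24 genes 5 were still called with GC content taken out, namely *KLF15*, *BANP*, *ATAT1*, *KRT8* and *ABHD17C*, and 8 at an adjusted p of at most 0.05.

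*KLF15* showed the largest of these values, and its EtOH libraries carry it. They held 65.8 and 60.9 normalised CPM at 9 hours, against 11.1 and 13.97 at 7 hours and 12.3 and 14 at 11 hours. The cause was not tested.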

How the results depend on the processing

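The comparison at 7 hours gave 4291 genes called, 2183 higher and 2108 lower. DESeq2 gave 2390, 1273 and 1117. With 1 library of 7 hours left out in turn the counts ran from 2280 to 4980 called, 1221 to 2607 higher and 1059 to 2373 lower, the lowest without dex replicate 1 and the highest without EtOH replicate 2. Stricter thresholds, other scalings and filters, a fit over 24 libraries, other ways to combine transcripts and GC content taken out gave 3056 to 4340 called. Library totals alone made 44.1% of calls higher against 50.9% and moved the median of all genes from -0.01 to -0.04. No named gene reversed its direction. The named genes most often no longer called were *ABCA3*, *NCOA2*, *ATAT1*, *CDC37*, *BAG1*, *KLF15* and *MZT2B*.

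Between 5 and 7 hours 0 genes were called by edgeR (802 at an unadjusted p under 0.05) and by DESeq2, 3 without a filter, and 0 to 4 with a library of 5 or 7 hours left out. Between 9 and 7 hours the 265 genes became 79 at an adjusted p of 0.05, 12 in a fit over 24 libraries, 615 without a filter, 54 with GC content taken out and 0 to 1342 with a library of 7 or 9 hours left out. DESeq2 gave 230 genes, 195 of them among the 265.

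The study's methods call the EtOH control paired, but neither they nor the labels say that replicate numbers mark pairs, and deviations of same-numbered dex and EtOH libraries correlated at 0.0265, over 2 pairs. A replicate block gave 4293 called (2183 higher, 2110 lower), 0 for the difference from 5 hours and 244 for that from 9 hours. The causes of these changes were not tested.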
